A study of Homo sapiens with 12 samples.

Results

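The human proteasome genes were examined in the clear cell renal carcinoma line 786-O after knockdown of HIF2A, of the JUN factors or of YAP and TAZ. The members were the protein-coding genes of the count table whose symbols begin with PSMA, PSMB, PSMC, PSMD, PSME, PSMF or PSMG, leaving out PSMB8, PSMB9 and pseudogenes. This gave 48 of 62702 genes, of which 8 lie on Chr 14 and 40 elsewhere. Among the 48, PSMC3IP, a partner in meiotic recombination, and PSME3IP1, a binding partner of PSME3, are neither subunits nor chaperones and carry the prefix only. Each of the 4 groups held 3 libraries, which the labels call technical replicates, so every p-value measures the spread between these libraries and not between independently made lines. The shHIF2A line carried a doxycycline-inducible shRNA against HIF2A, the protein of EPAS1. The shJUNs line carried shRNAs against JUN, JUNB and JUND, and the shYAPTAZ line against YAP1 (YAP) and WWTR1 (TAZ). The parental line was the common control, and all 4 lines were kept with doxycycline for 72 hours. The knockdown lines had been selected with 1 or more of puromycin, blasticidin and hygromycin according to how many genes were silenced, and a control-shRNA line was not analysed here. The assay, BRB-seq, pools barcoded samples and reads the 3′ ends of polyadenylated RNA, so levels in CPM (counts scaled to a common library size) were compared between groups and not between genes.

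The proteasome is the main protease for ubiquitin-tagged proteins. Its core, the 20S particle, is a stack of rings in which outer alpha subunits (PSMA genes) gate entry and inner beta subunits (PSMB genes) carry the catalytic sites. A 19S cap on the core has a base of ATPases (PSMC genes) that unfold substrates, non-ATPase subunits that bind ubiquitin, and a lid that removes it (most PSMD genes). Other caps (PSME genes) and dedicated assembly chaperones (PSMG genes, PSMD5, PSMD9 and PSMD10) complete the family. The transcription factor NFE2L1 is known to raise proteasome genes together, through antioxidant response elements in their promoters, when proteasome activity falls.

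Library totals were 2867807 to 3526537 counts in shHIF2A, 3684052 to 4469956 in shJUNs, 2272459 to 4127139 in shYAPTAZ and 2885287 to 3603339 in parental cells. A count of 3, the limit that a count of 0 allows, equalled 0.671 to 1.32 CPM, which covers counting error only. EPAS1 was lower in shHIF2A than in parental cells (log2 fold change -3.67 ± 0.33, adjusted p = 6.38e-07), JUND, JUN and JUNB were lower in shJUNs (-3.20, -0.84 and -0.76, adjusted p = 1.41e-11, 0.00215 and 0.034), and YAP1 and WWTR1 were lower in shYAPTAZ (-2.26 and -1.03, adjusted p = 1.2e-06 and 2.23e-05). Targets also moved outside their own line: EPAS1 was lower in shJUNs (-2.45 ± 0.30, adjusted p = 1.78e-05) and in shYAPTAZ (-0.85 ± 0.29, adjusted p = 0.0361), JUN and JUND were lower in shHIF2A (-0.93 and -0.69, adjusted p = 0.00103 and 0.00312), JUND was lower in shYAPTAZ (-1.06, adjusted p = 2.71e-05), and WWTR1 was higher in shHIF2A and shJUNs (0.70 and 0.50, adjusted p = 0.00181 and 0.0169). The 7 kidney epithelial markers summed to 356 to 648 CPM in shHIF2A, 429 to 516 CPM in shJUNs and 480.5 to 914 CPM in shYAPTAZ, against 370.3 to 379.9 CPM in parental libraries. Among them PAX8 averaged 88.9 to 101 CPM in the 4 groups and EMX2 had 4 counts in all. CDH6 averaged 306 ± 124 CPM in shHIF2A, 232 ± 15.5 CPM in shJUNs and 398 ± 186 CPM in shYAPTAZ, against 75.6 ± 6.65 CPM in parental cells (SD, n = 3 each). LHX1 averaged 37.3 ± 9.61, 17.6 ± 2.83 and 56.6 ± 20.5 CPM in the same knockdowns, against 88.5 ± 4.19 CPM in parental cells. The part of these markers in the proteasome values was not tested. The summed blood and endothelial markers stayed at or below 1.1 CPM in every library. Of the neural markers, RBFOX3 averaged 7.86 ± 0.872 CPM in shJUNs, against 0.957 ± 0.738 CPM in parental cells (SD, n = 3 each).

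Promoter sequences of 5 members are shown because they belong to the Chr 14 genes described most fully below and to a pair of genes elsewhere that hold the antioxidant response core. They run 5′ to 3′ from 250 bases before to 50 bases after the start site and come from RefSeq on GRCh38.p14. Capitals mark matches, on either strand, to TGACNNNGC (antioxidant response core), TGACTCA (AP-1), ACGTG (hypoxia response core), GGAATG (the TEAD partners of YAP and TAZ) and CCAAT (NF-Y). The windows are chr14:23034851-23035150 on the minus strand, chr14:24135944-24136243 on the plus strand, chr14:24146561-24146860 on the minus strand, chr17:38752491-38752790 on the plus strand and chr17:67366528-67366827 on the minus strand. For PSMB5 the start farthest downstream was taken.
PSMB5: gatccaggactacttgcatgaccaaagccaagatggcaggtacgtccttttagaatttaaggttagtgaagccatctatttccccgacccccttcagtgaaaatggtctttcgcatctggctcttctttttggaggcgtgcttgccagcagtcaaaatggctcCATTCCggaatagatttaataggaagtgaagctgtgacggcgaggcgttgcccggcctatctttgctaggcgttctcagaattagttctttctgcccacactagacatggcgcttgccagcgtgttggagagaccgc
PSME1: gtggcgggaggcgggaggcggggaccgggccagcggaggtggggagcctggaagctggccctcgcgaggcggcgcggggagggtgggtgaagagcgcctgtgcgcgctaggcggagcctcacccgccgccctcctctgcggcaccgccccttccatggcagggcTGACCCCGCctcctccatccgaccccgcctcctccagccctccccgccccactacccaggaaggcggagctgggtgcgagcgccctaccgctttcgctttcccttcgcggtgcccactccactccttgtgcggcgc
PSME2: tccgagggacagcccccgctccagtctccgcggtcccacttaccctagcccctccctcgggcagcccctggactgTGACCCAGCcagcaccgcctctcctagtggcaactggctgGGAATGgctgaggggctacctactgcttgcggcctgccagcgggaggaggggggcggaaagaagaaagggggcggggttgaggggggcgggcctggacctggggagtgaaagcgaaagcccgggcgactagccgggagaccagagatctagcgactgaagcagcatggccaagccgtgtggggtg
PSMB3: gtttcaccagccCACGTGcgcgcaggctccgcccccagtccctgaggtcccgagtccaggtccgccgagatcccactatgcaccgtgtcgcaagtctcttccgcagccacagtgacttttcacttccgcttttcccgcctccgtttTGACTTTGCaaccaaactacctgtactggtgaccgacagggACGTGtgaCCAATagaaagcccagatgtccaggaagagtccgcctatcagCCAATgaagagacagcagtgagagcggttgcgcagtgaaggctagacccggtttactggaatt
PSMD12: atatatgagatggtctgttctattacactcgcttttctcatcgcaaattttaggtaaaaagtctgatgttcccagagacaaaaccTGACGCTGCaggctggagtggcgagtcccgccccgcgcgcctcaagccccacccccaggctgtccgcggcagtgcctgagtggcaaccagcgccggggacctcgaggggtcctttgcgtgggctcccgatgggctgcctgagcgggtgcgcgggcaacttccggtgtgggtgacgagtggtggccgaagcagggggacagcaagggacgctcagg
The PSMB5 window held GGAATG on its opposite strand at -87 from the start site. Another PSMB5 window, chr14:23035171-23035470, is not printed and held CCAAT at -164 but not GGAATG. The PSME1 window held TGACNNNGC at -86, and the PSME2 window held it at -175 together with GGAATG at -135. The PSMB3 window held TGACNNNGC at -104, ACGTG at -63 and inside a CACGTG palindrome read on both strands at -238 and -237, and CCAAT at -55 and -13. The PSMD12 window held TGACNNNGC alone, at -165.

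RefSeq promoters were found for 42 of the 48 members, with 52 start sites, and PSMA7, PSMB1, PSMB6, PSMB7, PSMD4 and PSMG3 had no entry. The antioxidant response core was present in 14 of the 52 member promoters (26.9%) and in 4687 of all 35116 promoters (13.3%). Its 14 genes were PSMA4, PSMB3, PSMC4, PSMC5, PSMD1, PSMD3, PSMD5, PSMD9, PSMD12, PSME1, PSME2, PSME4, PSMG1 and PSMG2. AP-1 letters were present in 5.77% of member promoters (PSMC5, PSMD2 and PSMD9) and 4.95% of all promoters. The hypoxia core was present in 21.2% of member promoters and 21.4% of all promoters. GGAATG was present in 11.5% of member promoters, those of PSMA4, PSMB5, PSMC5, PSMC6, PSME2 and PSME3, and in 14% of all promoters. CCAAT was present in 44.2% of member promoters and 34.6% of all promoters. Each match describes letters in the window and not a bound site.

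Of the 48 members, 43 passed the filter on low counts, 6 of them on Chr 14 and 37 elsewhere. The other 5 are PSMA2, PSMA6, PSMB10, PSMA8 and PSMB11. PSMA8, a testis form of an alpha subunit, and PSMB11, the beta subunit of thymic epithelium, had no counts in 12 libraries. PSMA2 and PSMA6, alpha subunits of every 20S core, had only 11 and 27 counts over all libraries, and PSMB10, an inducible beta subunit, had 11. Of the last 500 exonic bases, 93.4% in PSMA2, 93.8% in PSMB10 and 45.2% in PSMA6 were also exonic in another annotated gene on the same strand, each of which had 0 counts. The sources used here do not say how reads in shared exons were counted, so these low counts cannot be read as low expression.

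In shHIF2A, 18 of the 43 tested members rose and none fell against parental, where 9.84% of all 12301 tested genes rose and 8.8% fell. The edgeR quasi-likelihood fit called no member lower here at an adjusted p under 0.05, and neither did DESeq2 or limma-voom. Of the 43, 1 (PSME1) was lower at an unadjusted p under 0.05. The members' median log2 fold change was 0.48, against 0.01 over all genes, and 39 of the 43 fold changes were above 0. In shJUNs 10 members rose and none fell, where 10.3% of all genes rose and 8.93% fell, and the median was 0.28 against -0.00 over all genes. DESeq2 and limma-voom also called none lower in shJUNs, and 0 were lower at an unadjusted p under 0.05. In shYAPTAZ 11 members rose and 1, PSMB7, fell, where 13% of all genes rose and 12.3% fell, and the median was 0.23 against 0.02 over all genes. These 3 comparisons share the parental libraries. Among the 4 groups a difference was called for 23 of the 43 members, with 38.7% of all genes and 58.1% of Chr 14 genes called. In bulk RNA, fewer cells of a kind and less RNA per cell cannot be told apart.

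**Figure D1:**
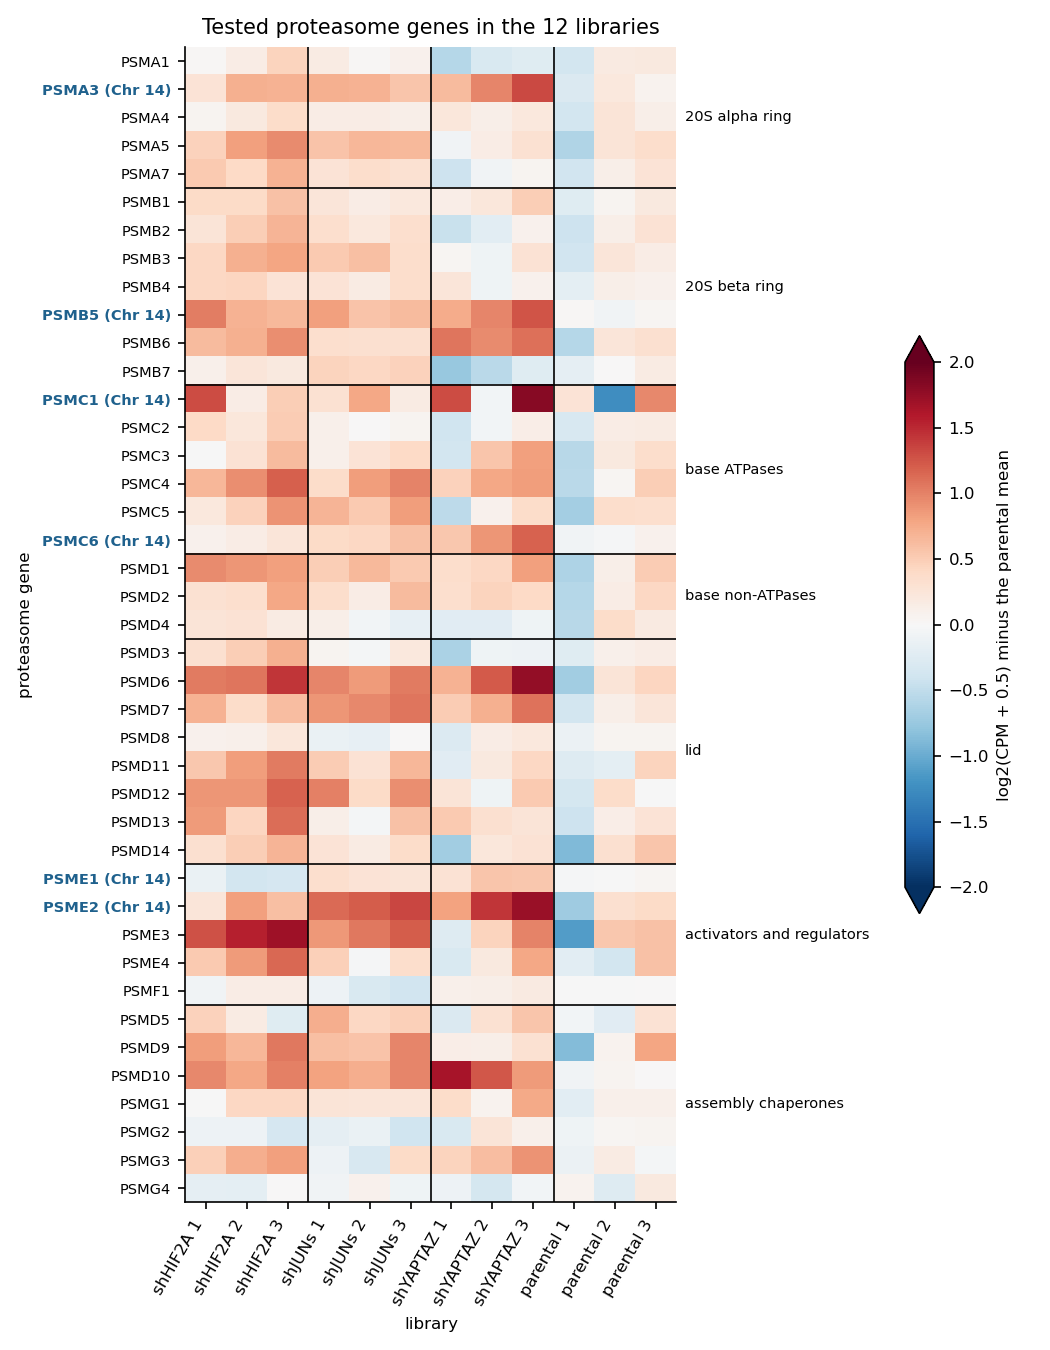
Each row is a tested proteasome gene, grouped by complex with Chr 14 genes in blue, and each column is a library. Color gives log2(CPM + 0.5) minus the mean of the 3 parental libraries (PSMC3IP and PSME3IP1 are not drawn). Parental replicate 1 is paler or bluer than the other parental libraries for most genes, and the Chr 14 rows are red throughout shYAPTAZ apart from PSMC1 in replicate 2.

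Parental replicate 1 was low for most of these genes, and this moves with the counts above. Over the 37 tested members elsewhere, its mean log2 level relative to the parental mean was -0.37, against 0.12 and 0.25 in parental replicates 2 and 3. In shYAPTAZ the same mean was 0.01, 0.20 and 0.43 in replicates 1 to 3. Without parental replicate 1, 8 members were called higher in shHIF2A, 4 in shJUNs and 9 in shYAPTAZ, with 2 lower in shYAPTAZ. That alternative also lowered the higher calls over all genes to 772, 872 and 1299 in the same order. With all libraries these were 1211, 1271 and 1599. Without parental replicate 1 and shYAPTAZ replicate 1 together, a choice made after the data were seen, 13, 7 and 10 members were called higher in shHIF2A, shJUNs and shYAPTAZ. Over all genes the higher calls were then 1047, 1151 and 1317. The shHIF2A count was also 11 without shHIF2A replicate 2 and 7 without replicate 3, and the shJUNs count was 5, 6 and 5 without shJUNs replicates 1, 2 and 3. Calls over all genes fell in these fits too. They were 828 and 885 higher in shHIF2A, and 915, 889 and 846 higher in shJUNs. No library left out gave a member called lower in shHIF2A or shJUNs. The members' median log2 fold changes in shHIF2A, shJUNs and shYAPTAZ were 0.27, 0.17 and 0.11 without parental replicate 1, and 0.62, 0.51 and 0.39 without parental replicate 3. In shYAPTAZ the median was 0.07 without shYAPTAZ replicate 3. The mitochondrial share of counts was highest in replicate 1 of every group, at 9.37%, 7.45% and 8.40% in shHIF2A, shJUNs and shYAPTAZ and 7.64% in parental cells, and lowest in replicate 3, at 7.20%, 6.33%, 6.54% and 6.91% in the same order. Its part in these values was not tested.

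The subunits on Chr 14 and those elsewhere stood apart most in shYAPTAZ. There 5 of the 6 tested Chr 14 members rose, with a median log2 fold change of 1.00 and a range of 0.47 to 1.31. Among the 37 members elsewhere, 6 rose and 1 fell in shYAPTAZ, with a median of 0.14 and a range of -0.50 to 1.28. Over all 413 tested genes of Chr 14, 43.8% rose and 3.15% fell in shYAPTAZ, with a median of 0.89 and quartiles of 0.34 and 1.35. The Chr 14 proteasome genes all lay between those quartiles, and those elsewhere lay nearer to the other 11888 genes, whose median was 0.00. The medians in shYAPTAZ without parental replicate 1 were 0.95 for the Chr 14 members, with 5 higher, and -0.01 for members elsewhere, with 4 higher and 2 lower. For members elsewhere it was also -0.01 without shYAPTAZ replicate 3, and 0.24 without parental replicate 3. No p-value is given for these medians, because genes are not replicates and the members were chosen with earlier results known.

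In shJUNs the Chr 14 members had a median of 0.55, with 3 of 6 higher, and members elsewhere had a median of 0.27, with 7 of 37 higher. All genes of Chr 14 had a median of 0.39 in shJUNs, with 22.5% higher and 1.69% lower. In shHIF2A the median was 0.52 for the Chr 14 members, with 2 of 6 higher, and 0.46 for members elsewhere, with 16 of 37 higher. All genes of Chr 14 had a median of -0.01 in shHIF2A, with 6.78% higher and 7.51% lower. Without parental replicate 1, the Chr 14 members and those elsewhere had medians of 0.47 and 0.11 in shJUNs, with 2 of 6 and 2 of 37 higher, and of 0.31 and 0.27 in shHIF2A, with 1 of 6 and 7 of 37 higher. The shJUNs median elsewhere was 0.42 without parental replicate 3. The difference of medians, Chr 14 members minus members elsewhere, was 0.86 in shYAPTAZ, 0.28 in shJUNs and 0.06 in shHIF2A. The pooled SD of this difference between replicate libraries, taken on mean log2 levels, was 0.178. On mean log2 levels relative to parental, a choice added after the medians were seen, the difference was 0.73 in shYAPTAZ, 0.27 in shJUNs and -0.09 in shHIF2A, and the 3 shHIF2A libraries had 0.10, -0.11 and -0.27. The shJUNs libraries had 0.27, 0.37 and 0.16, and the shYAPTAZ libraries had 0.71, 0.60 and 0.88. Parental libraries had 0.24, -0.25 and 0.01, so those of shHIF2A and shJUNs overlapped them and those of shYAPTAZ did not. The shHIF2A difference of medians was -0.12 without parental replicate 2, so its sign holds neither for means nor without that library. PSMC1, with few counts, is among the 6 Chr 14 members and weighs as much as each other gene in the mean log2 levels. It had 5, 1 and 11 counts in parental replicates 1 to 3. The overlap of the shJUNs and parental libraries may therefore rest on PSMC1, and it was not tested without that gene. The shHIF2A log2 fold change of PSMC1 was 0.59 with all libraries and 0.07 without parental replicate 2.

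**Figure D2:**
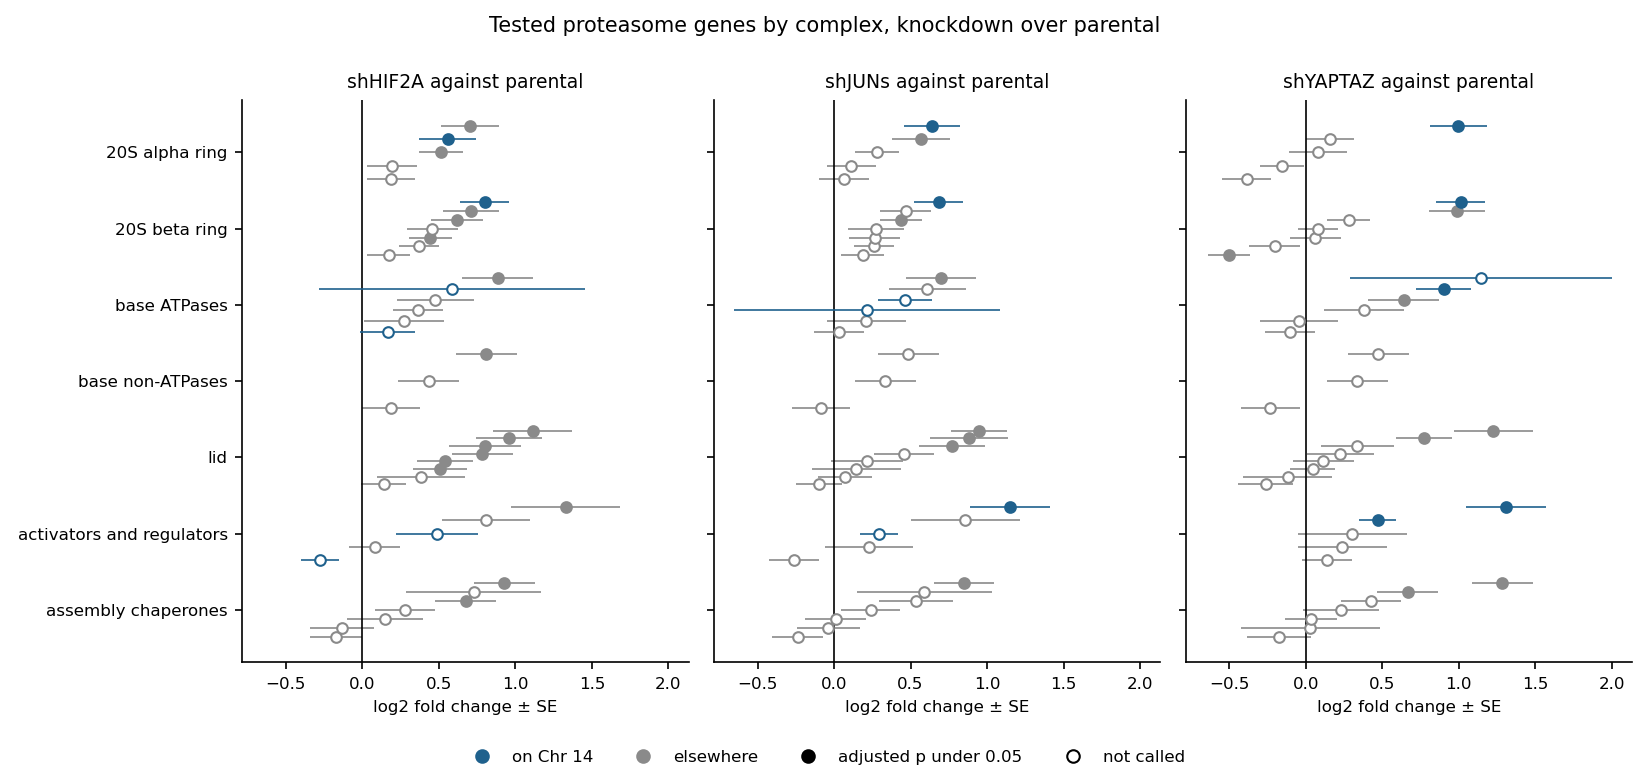
Log2 fold change ± SE of each tested member against parental cells in shHIF2A, shJUNs and shYAPTAZ, by complex; blue marks Chr 14, gray marks genes elsewhere, and filled points passed an adjusted p under 0.05. In shHIF2A blue and gray points mix, and in shYAPTAZ the blue points lie at 0.47 to 1.31 while most gray points lie near 0.

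With all libraries the same order held within complexes in shYAPTAZ, though only narrowly for the beta subunits. Over the alpha, beta, base and lid subunits, the 4 on Chr 14 had a median of 1.00 and the 25 elsewhere had a median of 0.08, with 3 higher on Chr 14 and 4 higher and 1 lower elsewhere. The alpha subunit on Chr 14 had a log2 fold change of 1.00, and the 4 alpha subunits elsewhere had -0.39 to 0.16. The beta subunit on Chr 14 had 1.01, and the 6 elsewhere had -0.50 to 0.99. Without parental replicate 3 the beta subunit PSMB6, elsewhere, had 1.15. PSMB5, the beta subunit on Chr 14, reached at most 1.13 in any fit that left out a library. The order of the beta subunits therefore did not hold without parental replicate 3. The base ATPases on Chr 14 had 0.90 and 1.15, the higher being the uncalled PSMC1, and the 4 elsewhere had -0.10 to 0.64. PSMC1 ranged from 0.59 to 1.93 in the fits that left out a library. The activators on Chr 14 had 0.47 and 1.31, and the 3 activators and regulators elsewhere had 0.14 to 0.31. In shJUNs the Chr 14 alpha subunit had 0.64, above the 0.07 to 0.57 of those elsewhere. The Chr 14 beta subunit had 0.68, above the 0.19 to 0.47 of those elsewhere. The order did not hold in shJUNs for the base ATPases, with 0.22 and 0.46 against 0.03 to 0.70 elsewhere. Nor did it hold for the activators, with 0.29 and 1.15 against -0.26 to 0.86 elsewhere. In shHIF2A the order held for the beta subunits, with 0.80 on Chr 14 and 0.17 to 0.71 in the 6 elsewhere. It did not hold for the others: the Chr 14 alpha subunit, at 0.56, lay inside the 0.18 to 0.70 of those elsewhere, the Chr 14 base ATPases, at 0.16 and 0.59, were not both above the 0.27 to 0.88 of those elsewhere, and the Chr 14 activators, at -0.28 and 0.49, lay below the 0.81 median of those elsewhere.

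**Figure D3:**
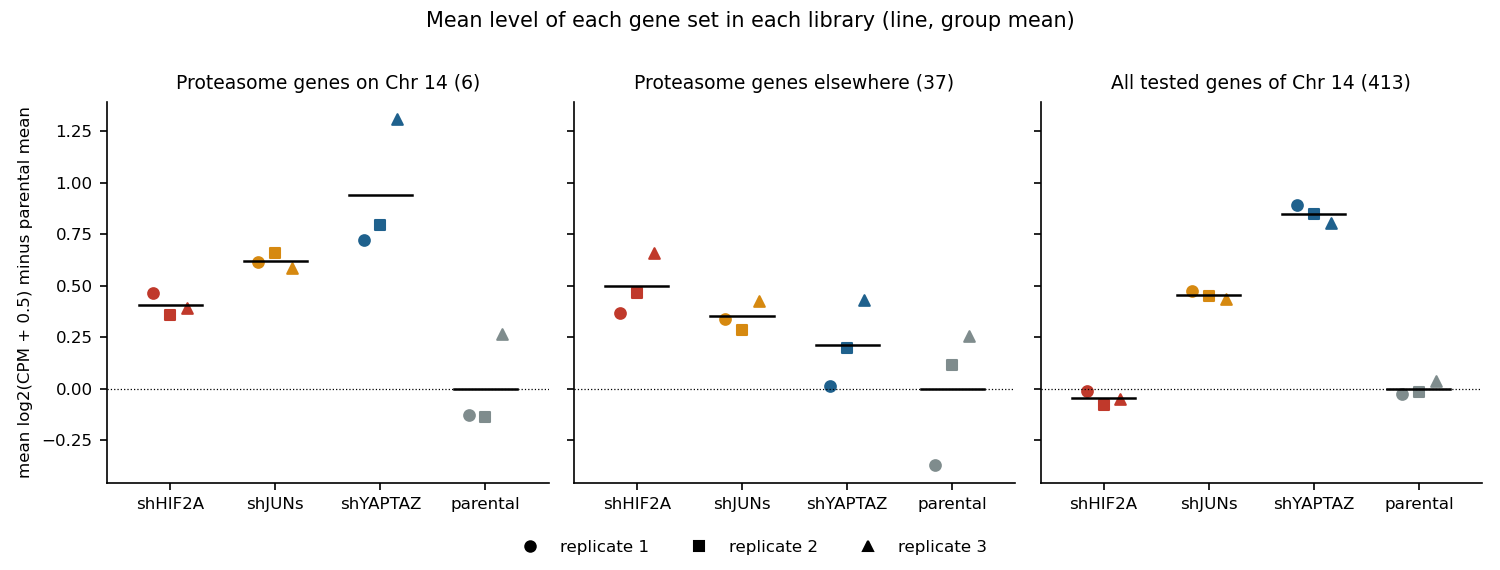
Mean over genes of log2(CPM + 0.5) minus the parental mean, 1 point a library and a line at the group mean, for the 6 tested proteasome genes on Chr 14, the 37 elsewhere and all 413 tested genes of Chr 14. The 3 shYAPTAZ libraries lie at 0.72, 0.79 and 1.31 for the Chr 14 proteasome genes and at 0.01, 0.20 and 0.43 for those elsewhere.

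PSMB5 (chr14:23016543-23035230, minus strand), the catalytic beta subunit with chymotrypsin-like activity and the main target of proteasome inhibitors, rose in each knockdown. It had 241, 192 and 186 CPM in shHIF2A, 209.9, 176 and 184 CPM in shJUNs and 199, 234 and 283 CPM in shYAPTAZ, against 120.1, 113 and 122 CPM in parental libraries. Every knockdown library lay above every parental library. Its log2 fold changes were 0.80 ± 0.16 (adjusted p = 0.00116) in shHIF2A, 0.68 ± 0.16 (adjusted p = 0.00367) in shJUNs and 1.01 ± 0.16 (adjusted p = 5.93e-05) in shYAPTAZ, and each call held under all 21 alternatives tried.

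PSMA3 (chr14:58244843-58272012, plus strand), an alpha ring subunit, had 112, 152 and 150.3 CPM in shHIF2A, 151, 151 and 136 CPM in shJUNs and 144, 183 and 232 CPM in shYAPTAZ, against 76.1, 107 and 97.8 CPM in parental libraries. All knockdown libraries were above all parental libraries, with the highest level in a shYAPTAZ library. The log2 fold changes were 0.56 ± 0.19 (adjusted p = 0.039) in shHIF2A, 0.64 ± 0.18 (adjusted p = 0.0173) in shJUNs and 1.00 ± 0.19 (adjusted p = 0.000378) in shYAPTAZ. The shHIF2A call was lost in 10 of 21 alternatives and the shJUNs call in 3, among them leaving out parental replicate 1 in both cases, while the shYAPTAZ call held in all.

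PSMC6 (chr14:52707178-52728590, plus strand), an ATPase of the base, rose in shYAPTAZ. It had 68.1, 71.1 and 75.7 CPM in shHIF2A, 83.0, 85.5 and 95.7 CPM in shJUNs and 93.1, 118 and 146 CPM in shYAPTAZ, against 61.1, 62.7 and 67.8 CPM in parental libraries. The shYAPTAZ and shJUNs libraries lay above the parental ones, and so, narrowly, did those of shHIF2A. Fold changes on the log2 scale were 0.16 ± 0.18 (adjusted p = 0.572) in shHIF2A, 0.46 ± 0.18 (adjusted p = 0.0729) in shJUNs and 0.90 ± 0.18 (adjusted p = 0.000693) in shYAPTAZ. PSMC1, the other base ATPase on Chr 14, had 105 counts in all and 4.06, 1.56 and 2.10 CPM in shHIF2A, 1.77, 2.67 and 1.56 CPM in shJUNs and 4.09, 1.27 and 6.02 CPM in shYAPTAZ, against 1.75, 0.281 and 3.11 CPM in parental libraries. Its libraries overlapped between groups and no change was called. Of the exonic bases of PSMC1, 76.2% are also exonic on the opposite strand, where NRDE2 lies, whose log2 fold change in shYAPTAZ was 1.27 ± 0.44 (adjusted p = 0.0351). Without stated strand use, reads of this pair cannot be told apart.

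PSME1 and PSME2 lie within a few kilobases of each other on Chr 14 and encode the alpha and beta chains of the PA28 cap, an interferon-inducible activator that opens the core without ATP. PSME1 (chr14:24136163-24138967) had 311, 264 and 270.1 CPM in shHIF2A, 430.5, 414 and 408 CPM in shJUNs and 419, 499.9 and 498 CPM in shYAPTAZ, against 336, 338 and 349 CPM in parental libraries. The shJUNs and shYAPTAZ libraries were above the parental libraries, and the shHIF2A libraries were below them. Its log2 fold changes were -0.28 ± 0.12 (adjusted p = 0.122) in shHIF2A, 0.29 ± 0.12 (adjusted p = 0.101) in shJUNs and 0.47 ± 0.12 (adjusted p = 0.00698) in shYAPTAZ, so only the shYAPTAZ rise was called. PSME2 (chr14:24143362-24147570) had 36.8, 55.2 and 47.3 CPM in shHIF2A, 69.0, 72.4 and 79.3 CPM in shJUNs and 54.9, 85.0 and 105 CPM in shYAPTAZ, against 18.9, 39.1 and 40.7 CPM in parental libraries. The shJUNs and shYAPTAZ libraries again lay above all parental ones, and the shHIF2A libraries overlapped them. Here the log2 fold changes were 0.49 ± 0.27 (adjusted p = 0.214) in shHIF2A, 1.15 ± 0.26 (adjusted p = 0.00334) in shJUNs and 1.31 ± 0.26 (adjusted p = 0.000825) in shYAPTAZ. The PSME1 and PSME2 calls held under all 21 alternatives. PSME2P6, a processed pseudogene of PSME2 on Chr 10 chosen after its values were seen, had 379 counts against 2535 for PSME2, with log2 fold changes of 1.72 ± 0.41 (adjusted p = 0.00532) in shJUNs and 1.65 ± 0.42 (adjusted p = 0.00555) in shYAPTAZ. The sources used here do not say how reads were split between PSME2 and this copy, so its part in the PSME2 values was not tested.

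**Figure D4:**
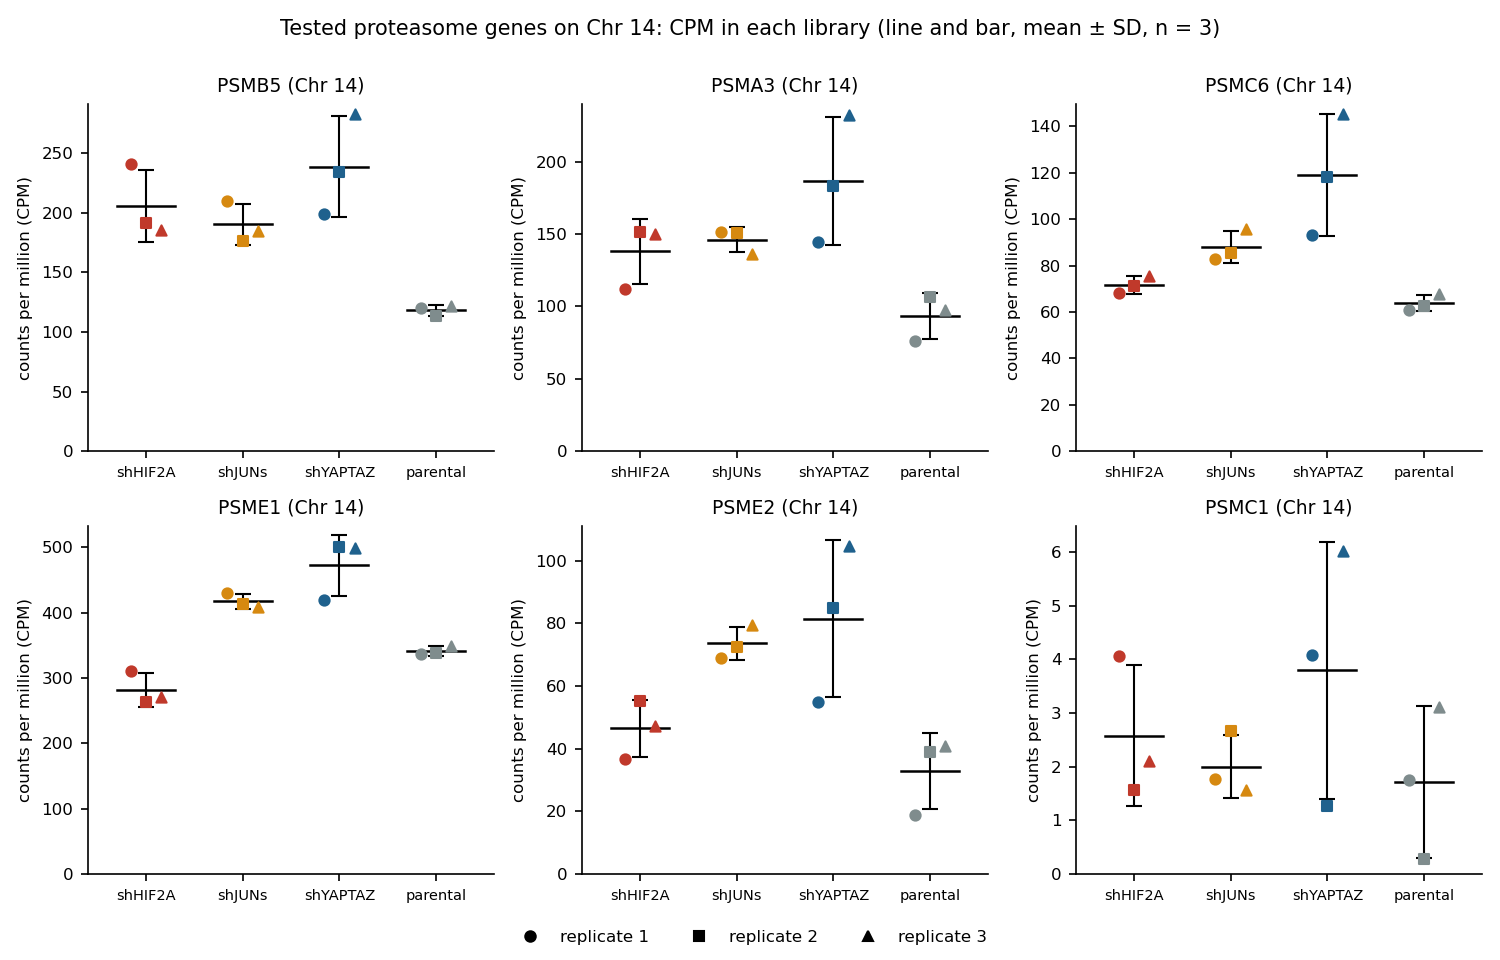
CPM of the 6 tested proteasome genes on Chr 14 in each library, shHIF2A, shJUNs, shYAPTAZ and parental from left to right; symbols mark the replicate, lines the mean and bars ± SD (n = 3). PSMB5 is above the parental libraries in all 9 knockdown libraries, while PSME1 is below them in shHIF2A and above them in shJUNs and shYAPTAZ.

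Among the 4 tested alpha subunits elsewhere (PSMA1, PSMA4, PSMA5 and PSMA7), 2 rose in shHIF2A, 1 in shJUNs and none in shYAPTAZ. At an unadjusted p under 0.05 the edgeR fit counted 1 of the 4 in shYAPTAZ, PSMA1, at -0.39 ± 0.16 (adjusted p = 0.0876). None of the 4 without parental replicate 1 was called higher in any knockdown by the edgeR fit, and PSMA1 was called lower in shYAPTAZ (-0.55, adjusted p = 0.0135). PSMA7, an alpha subunit that is also a contact for assembly factors, had 1274, 1172 and 1435 CPM in shHIF2A, 1072, 1137 and 1096 CPM in shJUNs and 669.6, 844 and 925 CPM in shYAPTAZ, against 681, 964 and 1072 CPM in parental libraries. The shHIF2A libraries lay above all parental libraries, and the other groups overlapped them. Its log2 fold changes were 0.51 ± 0.14 (adjusted p = 0.0148) in shHIF2A, 0.28 ± 0.14 (adjusted p = 0.181) in shJUNs and -0.16 ± 0.14 (adjusted p = 0.468) in shYAPTAZ, and the rise in shHIF2A was no longer called without parental replicate 1 or without shHIF2A replicate 3. PSMA5 had 284, 364 and 396 CPM in shHIF2A, 304, 324 and 321 CPM in shJUNs and 195, 227 and 254 CPM in shYAPTAZ, against 135, 245 and 260 CPM in parental libraries. The shHIF2A and shJUNs libraries lay above all parental libraries and the shYAPTAZ libraries did not. Log2 fold changes of PSMA5 were 0.70 ± 0.19 (adjusted p = 0.0121) in shHIF2A, 0.57 ± 0.19 (adjusted p = 0.0372) in shJUNs and 0.08 ± 0.19 (adjusted p = 0.808) in shYAPTAZ, and the shJUNs call was lost in 7 alternatives, the shHIF2A call in 3, among them leaving out parental replicate 1 in both cases.

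The other catalytic beta subunits moved apart from each other in shYAPTAZ. PSMB6 (Chr 17), the subunit with caspase-like activity, had 163, 172 and 201 CPM in shHIF2A, 134, 132 and 131 CPM in shJUNs and 222, 204 and 228 CPM in shYAPTAZ, against 70.8, 125 and 132 CPM in parental libraries. It was higher than in every parental library in shHIF2A and shYAPTAZ, with log2 fold changes of 0.71 ± 0.18 (adjusted p = 0.00915) in shHIF2A, 0.27 ± 0.18 (adjusted p = 0.326) in shJUNs and 0.99 ± 0.18 (adjusted p = 0.000363) in shYAPTAZ. PSMB7 (Chr 9), the subunit with trypsin-like activity, had 344, 379.6 and 369.9 CPM in shHIF2A, 440, 430 and 444 CPM in shJUNs and 191, 222 and 272 CPM in shYAPTAZ, against 285, 324 and 362 CPM in parental libraries. It was below all parental libraries in shYAPTAZ and above them in shJUNs. PSMB7's log2 fold changes were 0.17 ± 0.14 (adjusted p = 0.42) in shHIF2A, 0.44 ± 0.14 (adjusted p = 0.0292) in shJUNs and -0.50 ± 0.14 (adjusted p = 0.0107) in shYAPTAZ. The fall in shYAPTAZ was not called without parental replicate 3 or with only the 6 libraries compared, and the rise in shJUNs was not called without parental replicate 1 or 2 or any 1 of the shJUNs libraries. Thus in shYAPTAZ the RNAs of the 3 catalytic subunits had log2 fold changes of 1.01 (PSMB5), 0.99 (PSMB6) and -0.50 (PSMB7), whereas in shHIF2A they had 0.80, 0.71 and 0.17.

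PSMB3, a structural beta subunit on Chr 17, had 211, 259 and 275 CPM in shHIF2A, 227, 240.3 and 203 CPM in shJUNs and 162, 150 and 194 CPM in shYAPTAZ, against 121, 188 and 175 CPM in parental libraries. In shJUNs, where all libraries were above parental, its log2 fold change of 0.47 ± 0.17 (adjusted p = 0.0545) was not called, but it was in 9 of 21 alternatives, DESeq2 and limma-voom among them. PSMB3 rose in shHIF2A (0.62 ± 0.17, adjusted p = 0.0129) but was not called there without parental replicate 1 or without shHIF2A replicate 2 or 3. PSMB1 also rose in shHIF2A (0.44 ± 0.14, adjusted p = 0.0301), but not past the threshold without parental replicate 1 (0.32, adjusted p = 0.141). PSMB2 and PSMB4 were not called in any comparison with parental (adjusted p from 0.0507 to 0.698). The inducible catalytic subunits PSMB8 and PSMB9, which replace PSMB5 and PSMB6 in the immunoproteasome and lie together on Chr 6 outside the set, were higher in each knockdown. PSMB8 had log2 fold changes of 0.50, 0.78 and 1.27 in shHIF2A, shJUNs and shYAPTAZ, and PSMB9 had 0.87, 1.63 and 2.13 (largest adjusted p = 0.0205).

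**Figure D5:**
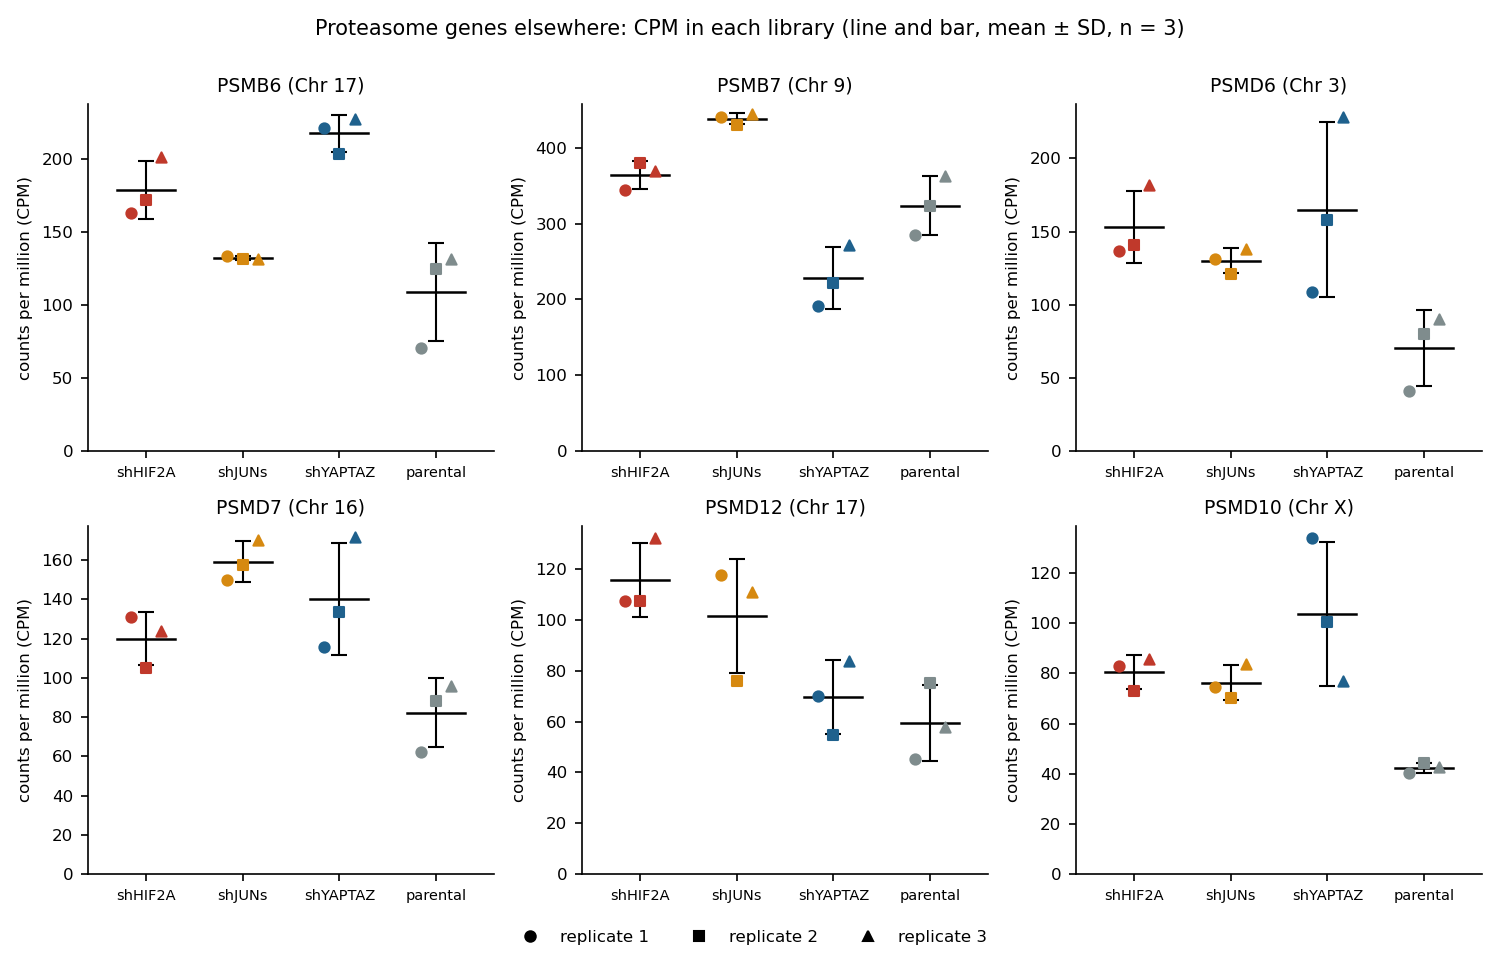
CPM in each library of 6 members outside Chr 14 that the text describes, shHIF2A, shJUNs, shYAPTAZ and parental from left to right; symbols mark the replicate, lines the mean and bars ± SD (n = 3). PSMB7 is lower in shYAPTAZ than in any parental library, and PSMD10 is higher in all 9 knockdown libraries than in any parental library.

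Of the base ATPases elsewhere, PSMC4 was the 1 called against parental. It had 82.3, 99.2 and 119 CPM in shHIF2A, 67.2, 93.2 and 104 CPM in shJUNs and 71.3, 88.5 and 93.0 CPM in shYAPTAZ, against 35.6, 53.4 and 72.9 CPM in parental libraries. Its libraries overlapped the parental ones in shJUNs and shYAPTAZ but not in shHIF2A. The log2 fold changes were 0.88 ± 0.23 (adjusted p = 0.00973) in shHIF2A, 0.70 ± 0.23 (adjusted p = 0.0342) in shJUNs and 0.64 ± 0.23 (adjusted p = 0.0449) in shYAPTAZ, and in each comparison the call did not hold without parental replicate 1. The shYAPTAZ call was lost in 9 of 21 alternatives, the 6-library fit among them, the shJUNs call in 5, and the shHIF2A call also without shHIF2A replicate 3. PSMC2, PSMC3 and PSMC5 were not called (log2 fold changes from -0.10 to 0.61). Of the non-ATPase subunits of the base, the scaffold PSMD1 rose in shHIF2A with 259.7, 248 and 238 CPM in shHIF2A, against 88.0, 146 and 191 CPM in parental libraries, a log2 fold change of 0.81 ± 0.20 (adjusted p = 0.00664). Without parental replicate 1 it was 0.55, adjusted p = 0.0326 by the same edgeR test. PSMD2, its partner scaffold, and PSMD4, a ubiquitin receptor, were not called in any comparison with parental.

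The lid held the most calls of any complex in shHIF2A, 6 of 8 members, against 3 in shJUNs and 2 in shYAPTAZ, where 9.84%, 10.3% and 13% of all genes were higher. The 6 fell to 3 without parental replicate 1, parental replicate 2 or shHIF2A replicate 3, and the 3 in shJUNs fell to 1 without parental replicate 1 or shJUNs replicate 1 or 3. Over all genes the higher calls in these shHIF2A fits were 772, 866 and 885, against 1211 with all libraries. In these shJUNs fits they were 872, 915 and 846, against 1271. PSMD6 (Chr 3) had 137, 141 and 182 CPM in shHIF2A, 132, 121 and 138 CPM in shJUNs and 109, 158 and 228 CPM in shYAPTAZ, against 41.2, 79.8 and 90.5 CPM in parental libraries. Every knockdown library lay above every parental library. Its log2 fold changes were 1.11 ± 0.26 (adjusted p = 0.00512) in shHIF2A, 0.88 ± 0.26 (adjusted p = 0.0206) in shJUNs and 1.23 ± 0.26 (adjusted p = 0.0016) in shYAPTAZ, and its shJUNs call was lost without parental replicate 1 or shJUNs replicate 1 or 3. PSMD7 (Chr 16), the partner of the deubiquitinase PSMD14, had 131, 105 and 124 CPM in shHIF2A, 149.8, 158 and 170.5 CPM in shJUNs and 116, 133 and 172 CPM in shYAPTAZ, against 62.5, 88.3 and 96.1 CPM in parental libraries. It too was above all parental libraries in all 9 knockdown libraries. On the log2 scale PSMD7 changed by 0.54 ± 0.18 (adjusted p = 0.0425) in shHIF2A, 0.95 ± 0.18 (adjusted p = 0.000812) in shJUNs and 0.77 ± 0.18 (adjusted p = 0.00339) in shYAPTAZ. The shHIF2A call of PSMD7 was lost in 11 of 21 alternatives, and 31.2% of its exonic bases are also exonic on the opposite strand.

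PSMD12 (Chr 17), a scaffold subunit of the lid, had 107, 107 and 132 CPM in shHIF2A, 118, 75.8 and 111 CPM in shJUNs and 69.9, 54.8 and 83.9 CPM in shYAPTAZ, against 45.4, 75.1 and 57.7 CPM in parental libraries. The shHIF2A and shJUNs libraries lay above the parental ones, shJUNs replicate 2 only narrowly, and the shYAPTAZ libraries overlapped them. Its log2 fold changes were 0.96 ± 0.22 (adjusted p = 0.00327) in shHIF2A, 0.77 ± 0.21 (adjusted p = 0.0136) in shJUNs and 0.23 ± 0.22 (adjusted p = 0.487) in shYAPTAZ, and the shJUNs call did not hold without parental replicate 1 or shJUNs replicate 1 or 3. PSMD11 (Chr 17) had 215, 266 and 305 CPM in shHIF2A, 211, 180.3 and 236 CPM in shJUNs and 126, 169 and 198 CPM in shYAPTAZ, against 124, 129 and 203 CPM in parental libraries. All shHIF2A libraries were above the parental ones and the other groups overlapped them, with log2 fold changes of 0.78 ± 0.20 (adjusted p = 0.00763) in shHIF2A, 0.46 ± 0.20 (adjusted p = 0.108) in shJUNs and 0.12 ± 0.20 (adjusted p = 0.718) in shYAPTAZ. The rise was not called without parental replicate 2. PSMD3 (Chr 17) had 134, 152 and 176 CPM in shHIF2A, 112, 105 and 124 CPM in shJUNs and 69.0, 101 and 99.5 CPM in shYAPTAZ, against 90.4, 115 and 119 CPM in parental libraries. Its rise in shHIF2A (0.51 ± 0.18, adjusted p = 0.0493) sat at the threshold and was lost in 14 of 21 alternatives, among them other scalings, leaving out parental replicate 1 and the fit on the 6 libraries compared. PSMD13 rose in shHIF2A (0.80 ± 0.23, adjusted p = 0.0194), which was not called without parental replicate 1 (0.62, adjusted p = 0.107). PSMD8 and PSMD14, the deubiquitinase itself, were not called against parental, with log2 fold changes from -0.12 to 0.38.

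Of the regulators elsewhere, PSME3, the nuclear PA28 cap on Chr 17, rose in shHIF2A with 118, 144 and 157 CPM in shHIF2A, against 22.0, 70.8 and 72.6 CPM in parental libraries. All 3 shHIF2A libraries exceeded the parental ones, of which replicate 1 was far below the others, and the log2 fold change was 1.33 ± 0.36 (adjusted p = 0.018). Without that parental library it was 0.95, adjusted p = 0.0169 by the same edgeR test. In shJUNs and shYAPTAZ PSME3 had 0.86 ± 0.35 (adjusted p = 0.108) and 0.31 ± 0.36 (adjusted p = 0.589). PSME4, a cap linked to histone turnover, and PSMF1, a regulator that binds the core, were not called (adjusted p from 0.0527 to 0.79).

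Among the 7 assembly chaperones, 2 rose in shHIF2A, 1 in shJUNs and 2 in shYAPTAZ, where 9.84%, 10.3% and 13% of all genes rose. PSMD10 (gankyrin, Chr X), a chaperone of the base and an oncoprotein in liver, had 82.9, 73.0 and 85.8 CPM in shHIF2A, 74.5, 70.2 and 83.8 CPM in shJUNs and 134, 101 and 76.9 CPM in shYAPTAZ, against 40.1, 44.1 and 42.7 CPM in parental libraries. All 9 knockdown libraries were above the 3 parental libraries, which agreed closely. Its log2 fold changes were 0.93 ± 0.20 (adjusted p = 0.00223) in shHIF2A, 0.85 ± 0.20 (adjusted p = 0.00392) in shJUNs and 1.28 ± 0.20 (adjusted p = 5.1e-05) in shYAPTAZ, called under all 21 alternatives. PSMG3 (Chr 7), a chaperone of the alpha ring, had 86.7, 104 and 110.3 CPM in shHIF2A, 57.9, 50.2 and 81.3 CPM in shJUNs and 84.9, 96.5 and 117 CPM in shYAPTAZ, against 57.6, 70.0 and 60.5 CPM in parental libraries. It was above the parental libraries in shHIF2A and shYAPTAZ and overlapped them in shJUNs. PSMG3's log2 fold changes were 0.68 ± 0.20 (adjusted p = 0.0199) in shHIF2A, 0.01 ± 0.20 (adjusted p = 0.98) in shJUNs and 0.67 ± 0.20 (adjusted p = 0.0159) in shYAPTAZ, and neither was called without parental replicate 1. The shHIF2A call was also lost without parental replicate 3 or shHIF2A replicate 2 or 3, and the shYAPTAZ call without shYAPTAZ replicate 3. PSMD5, PSMD9, PSMG1, PSMG2 and PSMG4 were not called against parental, with log2 fold changes from -0.24 to 0.73.

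The knockdown lines were also compared with each other, which does not use the parental mean, although the parental libraries enter the estimate of spread. In shYAPTAZ against shHIF2A, 3 members were higher and 10 were lower, where 9.71% of all genes were higher and 8.72% lower. The 3 higher were all on Chr 14: PSMC6 (0.74 ± 0.18, adjusted p = 0.00534), PSME1 (0.75 ± 0.12, adjusted p = 0.00017) and PSME2 (0.82 ± 0.26, adjusted p = 0.0296). The 10 lower were all elsewhere, namely PSMA1, PSMA5, PSMA7, PSMB2, PSMB3, PSMB7, PSMC2, PSMD3, PSMD11 and PSMD12. The lowest of them was PSMD3 at -0.77 ± 0.18 (adjusted p = 0.00412), and PSMA7 and PSMB7 had -0.67 ± 0.14 (adjusted p = 0.00218) and -0.67 ± 0.14 (adjusted p = 0.00167). The median log2 fold change was 0.41 for the Chr 14 members without shYAPTAZ replicate 3. With all libraries, medians were 0.65 for the Chr 14 members and -0.29 for those elsewhere, against 0.82 over all Chr 14 genes, of which 42.9% were higher and 1.69% lower. The count of 10 was 5, 5, 6 and 4 without shYAPTAZ replicate 1, shYAPTAZ replicate 2, shHIF2A replicate 2 and shHIF2A replicate 3. Over all genes the lower calls in these fits were 1014, 725, 768 and 842, against 1073 with all libraries.

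In shJUNs against shHIF2A, PSME1 was higher (0.57 ± 0.12, adjusted p = 0.0053) and PSMG3 was lower (-0.66 ± 0.20, adjusted p = 0.0404), with 4.36% of all genes higher and 3.17% lower, and 12.1% and 0.242% of Chr 14 genes. The PSMG3 call was lost in 6 of the 12 fits that left out a library, those without parental replicate 2, shHIF2A replicate 2 or 3, shJUNs replicate 1 or 2, or shYAPTAZ replicate 2. In shYAPTAZ against shJUNs, PSMB6 (0.72 ± 0.18, adjusted p = 0.00853) and PSMG3 (0.66 ± 0.20, adjusted p = 0.0247) were higher, with 7.87% of all genes higher. PSMA7 (-0.44 ± 0.14, adjusted p = 0.0396) and PSMB7 (-0.94 ± 0.14, adjusted p = 5.79e-05) were lower, with 8.27% of all genes lower. Of the Chr 14 genes 15.5% were higher and 2.42% lower, and none of the 6 Chr 14 members was called by the edgeR fit, 2 having an unadjusted p under 0.05. PSMB7 thus had its lowest levels in shYAPTAZ, and its highest in shJUNs. The count of lower members in this comparison was 8 without shYAPTAZ replicate 3 and 6 without parental replicate 1. It was 1 without parental replicate 2, shHIF2A replicate 2, shJUNs replicate 1 or 3, or shYAPTAZ replicate 1 or 2, and the count of higher members was 1 without shJUNs replicate 1 or 2 or shYAPTAZ replicate 2. Over all genes the lower calls were 1121 without shYAPTAZ replicate 3, 1117 without parental replicate 1 and 683 to 952 in the fits with 1 lower member. With all libraries they were 1017. The higher calls over all genes were 627, 626 and 659 in the fits with 1 higher member, against 968.

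Genes that work with the proteasome were taken from lists outside the set. Their calls, and those of PSMB8 and PSMB9, come from the reported fit only and were not retried under the alternatives. The part of parental replicate 1 in them was therefore not tested. Over all genes, 9.84% were higher and 8.8% lower in shHIF2A, shJUNs had 10.3% higher and 8.93% lower, shYAPTAZ had 13% higher and 12.3% lower, and in lists this short 1 gene is close to such a share. Of the subunits with another symbol, the ubiquitin receptor ADRM1 rose in shHIF2A (0.71 ± 0.20, adjusted p = 0.0173) and shJUNs (0.59 ± 0.20, adjusted p = 0.0449) but not in shYAPTAZ (-0.02 ± 0.21, adjusted p = 0.953), and SEM1 was not called. Of 8 assembly and associated proteins, 1 rose and 1 fell in shHIF2A, none was called in shJUNs and 2 fell in shYAPTAZ. ECPAS, a scaffold that holds core and cap together, fell in shHIF2A (-0.57, adjusted p = 0.0353) and shYAPTAZ (-1.07, adjusted p = 0.000243). UBE3C, a ubiquitin ligase on the proteasome, fell in shYAPTAZ (-0.54 ± 0.17, adjusted p = 0.0222), and TXNL1 rose in shHIF2A (0.45 ± 0.15, adjusted p = 0.0446). In shJUNs 1 of the 8 had an unadjusted p under 0.05.

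Of 5 genes of ubiquitin and its activating enzymes, 1 rose in shHIF2A, 1 in shJUNs and 2 in shYAPTAZ, where 9.84%, 10.3% and 13% of all genes rose. The polyubiquitin gene UBB rose in shYAPTAZ (0.93 ± 0.15, adjusted p = 9.18e-05). The activating enzyme UBA6 rose in shJUNs (0.76 ± 0.22, adjusted p = 0.0169) and shYAPTAZ (1.14 ± 0.22, adjusted p = 0.000526), and RPS27A, a ubiquitin fusion, rose in shHIF2A (0.38 ± 0.10, adjusted p = 0.0119). Of 8 shuttle and segregase genes, 1 rose in shHIF2A, 3 rose in shJUNs, and 3 rose and 2 fell in shYAPTAZ. VCP, the segregase ATPase, had log2 fold changes of 0.90 ± 0.17 (adjusted p = 0.000706) in shHIF2A, 0.53 ± 0.17 (adjusted p = 0.0302) in shJUNs and 0.76 ± 0.17 (adjusted p = 0.00191) in shYAPTAZ. Its cofactor UFD1 rose in shJUNs (1.12 ± 0.28, adjusted p = 0.00786) and shYAPTAZ (1.30 ± 0.28, adjusted p = 0.00193). Another cofactor of VCP, NSFL1C, rose in shYAPTAZ (1.09 ± 0.30, adjusted p = 0.0109), and UBQLN2, a shuttle, fell there (-0.81 ± 0.21, adjusted p = 0.00571).

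Of 4 regulators of proteasome gene transcription, 1 fell in shHIF2A, none was called in shJUNs, and 1 rose and 2 fell in shYAPTAZ. Over all genes 8.8% fell in shHIF2A, and 13% rose and 12.3% fell in shYAPTAZ. At an unadjusted p under 0.05 the edgeR fit also counted 0 of the 4 in shJUNs. NFE2L1 had 64.9, 54.6 and 48.3 CPM in shHIF2A, 88.1, 110.3 and 84.5 CPM in shJUNs and 65.8, 73.2 and 63.1 CPM in shYAPTAZ, against 125, 109 and 116 CPM in parental libraries. The shHIF2A and shYAPTAZ libraries lay below every parental library. The log2 fold changes of NFE2L1 were -1.06 ± 0.18 (adjusted p = 0.00023) in shHIF2A, -0.31 ± 0.17 (adjusted p = 0.232) in shJUNs and -0.79 ± 0.18 (adjusted p = 0.002) in shYAPTAZ. DDI2, the protease that activates the NFE2L1 protein, fell in shYAPTAZ (-1.08 ± 0.35, adjusted p = 0.0253), and NFE2L2, the related antioxidant factor, rose there (0.53 ± 0.15, adjusted p = 0.0123). NGLY1 was not called.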

How the data were processed

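The authors deposited raw counts per gene, per the file headers in the layout of featureCounts, made with Trim Galore and STAR on hg38 per the submitters' processing notes. Not given in the sources used here are the counting program, strand use, annotation release, versions and treatment of molecular identifiers. A gene broken over 3 lines of the deposited table was left out. Gene IDs were paired with symbols by a reference table, gene types from GENCODE 29, and gene coordinates from the deposited table (hg38).

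The counts were analysed in R 4.3.3 with edgeR 4.0.16: filterByExpr by group, TMM scaling and robust quasi-likelihood tests of the 4 group means over all 12 libraries. The filter left 12301 genes, and a call means an adjusted p under 0.05 (Benjamini-Hochberg, over all of them). The SE of a log2 fold change is its size divided by the square root of its F statistic. CPM are counts divided by the TMM-scaled library size in units of 1e6 counts. Chi-squared per degree of freedom between replicates was 4.91 to 20.24, so no library repeats another. The fit was tested on simulated data with known changes. The simulation gave every gene the same dispersion and had no low library. It therefore does not bear on calls that depend on which libraries are kept. Alternatives used DESeq2 1.42.0, limma-voom (limma 3.58.1), other scalings and filters, 6-library fits, a replicate block and leaving out libraries. Promoters were searched with Python 3 on both strands.

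The members and gene lists were chosen with earlier results of these data known. Values per library are given for tested Chr 14 members, the 12 others with the smallest p among the 4 groups, and members called against parental in all 3 knockdowns. From each list up to 4 called genes are named. Some genes of the lists are not reported here and are left out of their counts. PSMA1, PSMB1, PSMD1, PSMD13 and PSME3 were given values after these were seen.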

Additional observations from a re-analysis of the deposited data

How the results depend on the processing

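The reported counts are 18 members higher in shHIF2A, 10 higher in shJUNs, and 11 higher and 1 lower in shYAPTAZ against parental. Leaving out each library in turn gave 7 to 21 in shHIF2A, 4 to 12 in shJUNs, 9 to 12 higher and 0 to 2 lower in shYAPTAZ. Over all genes the higher calls in the same fits ranged from 772 to 1408, 846 to 1450 and 1246 to 1656. For the knockdown lines against each other, counts of members follow. For shJUNs against shHIF2A leaving out each library gave 1 higher throughout and 0 to 1 lower, for shYAPTAZ against shHIF2A 2 to 4 higher and 4 to 12 lower, for shYAPTAZ against shJUNs 1 to 3 higher and 1 to 8 lower, and among the 4 groups 18 to 26 called. The Chr 14 minus elsewhere median ranged from -0.118 to 0.109 in shHIF2A, 0.234 to 0.363 in shJUNs and 0.765 to 0.953 in shYAPTAZ.

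With only the 6 libraries compared, no member was lower in shYAPTAZ against parental, 3 were higher and 4 lower in shJUNs against shHIF2A, and 6 were lower in shYAPTAZ against shJUNs. Over all genes these fits gave, in this order, 1097 lower, 879 higher and 742 lower, and 899 lower. The reported fit gave 1514, 536, 390 and 1017. Without a filter, 2 members were higher in shJUNs against shHIF2A and 6 lower in shYAPTAZ against shJUNs, where DESeq2 gave 1 lower. Over all genes these were 690 higher, 1064 lower and, with DESeq2, 1142 lower. Without parental replicate 1 and shYAPTAZ replicate 1 together, 2 members were lower in shYAPTAZ against parental, 2 higher and 3 lower in shJUNs against shHIF2A, and 6 higher in shYAPTAZ against shJUNs. Over all genes that fit gave, in this order, 1285 lower, 844 higher and 633 lower, and 1043 higher. The reported fit had 968 genes higher in shYAPTAZ against shJUNs. The cause of these changes was not tested. With the replicate number as a block, 23 members were called in shHIF2A, 17 were higher in shJUNs and 2 were lower in shYAPTAZ against parental. Calls over all genes rose with the block too. They were 1513 higher and 1365 lower in shHIF2A, 1564 higher in shJUNs and 1727 lower in shYAPTAZ. In the reported fit these were 1211, 1082, 1271 and 1514. The block also gave 2 members higher in shJUNs against shHIF2A and 9 lower in shYAPTAZ against shJUNs. Over all genes these were 778 higher and 1289 lower, against 536 and 1017 in the reported fit. The numbers name technical replicates and were not taken as pairs. Same-numbered libraries correlated at -0.00955 to 0.22 in their deviations, with 5 of 18 pairs above 0.1. Of 12 libraries, 8 correlated best with their own number. Pairs of a replicate 1 with a replicate 3 from another group correlated at -0.192 to -0.0314. The reported fit does not model this pattern over replicate numbers. No alternative turned the direction of a named member that was called. Of 57 pairs of named member and comparison, 36 were called, and over the 21 alternatives 90 values lost a call, 15 gained 1 and 1087 kept theirs, PSMC1 being untested where the filter removed it.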

Other observations

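Both genes that carry a proteasome prefix without being subunits or chaperones went uncalled. PSMC3IP had log2 fold changes of -0.34 ± 0.43 (adjusted p = 0.633) in shHIF2A, -0.07 ± 0.42 (adjusted p = 0.939) in shJUNs and -0.29 ± 0.43 (adjusted p = 0.67) in shYAPTAZ, and PSME3IP1 had 0.12 ± 0.21 (adjusted p = 0.752) in shHIF2A, 0.47 ± 0.21 (adjusted p = 0.122) in shJUNs and 0.36 ± 0.21 (adjusted p = 0.223) in shYAPTAZ. The table also held 44 pseudogenes with these prefixes, of which 25 had no count in any library. Together the pseudogenes had 519 counts, against 296917 for the 48 members. The PSMC1 pseudogenes, 13 in all, had 3 counts, the PSMA6 pseudogenes had 21 counts and the PSMA2 pseudogenes had 12 counts.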
